A study of Homo sapiens with 60 samples.

Results

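HepG2 cells, an established human liver cancer line, were treated for 24 h with a 70% ethanol extract of Saengmaek-san at 500 ug/mL (high dose) or 20 ug/mL (low dose), and their RNA was sequenced. Members were picked by label: 3 high-dose and 3 low-dose libraries, all of 1 set numbered 13, so 6 of the 60 libraries of the series. Medium-dose (100 ug/mL) libraries of the same extract, libraries of Guibi-tang at 500 and 20 ug/mL from the same set, and DMSO vehicle libraries with a set label of their own, 3 each, are used only for comparison. Saengmaek-san and Guibi-tang are formulas of several herbs, and the labels name both as ethanol extracts. For extracts that inhibited the cells more strongly the study lowered its top dose, and 500 ug/mL was its ceiling, so the high dose of Saengmaek-san was not set by inhibition. The labels give the vehicle as 0.1% DMSO and the design text as 2%, and nothing in the data tells these apart. Whether replicates came from separate cultures is not stated. The p-values therefore describe a spread between libraries, shared over the 57 libraries fitted, which could be technical. In RNA from whole cultures, fewer cells of a kind and less RNA per cell cannot be told apart.

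Saengmaek-san is traditionally made of ginseng root, Ophiopogon tuber and Schisandra fruit, and its plant compounds reach liver cells as foreign chemicals. Such cells answer foreign chemicals through sensors. AHR binds planar aromatic ligands and, with its partner ARNT, switches on CYP1A1. NRF2, held down by KEAP1 until electrophiles arrive, drives genes of glutathione synthesis, quinone reduction and aldo-keto reduction. MTF1 senses free zinc and drives the metallothioneins, small cysteine-rich proteins that bind zinc and copper, together with the zinc exporter SLC30A1.

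The 6 libraries held 20.3 to 27.5 M counts, against a median of 23.7 M over the series. Mitochondrially encoded genes took 13.2% to 13.9% of counts at the high dose and 10.1% to 13.3% at the low dose, ranges that overlap. The hepatocyte and HepG2 markers ALB, AFP, APOA1, TTR, HNF4A and GPC3 all had counts in each of the 6 libraries. Their summed levels were 16367 to 17201 CPM (counts per M counts of a library) at the high dose and 16048 to 17584 CPM at the low dose. Summed levels in this paragraph are without TMM scaling, while CPM of single genes below are TMM-scaled. Of the markers of other cell types, PTPRC, CD3E and HBB (blood), DCN (stroma) and MUC2 (gut) had 0 counts in all 6. Others had many counts, among them LYZ (24564 to 35072), KRT19 (2836 to 4943), LGR5 (3010 to 4372), EPCAM (2647 to 3778) and ACTA2 (910 to 1380). The summed blood list (mostly LYZ) was 1233 to 1294 CPM at the high dose and 1216 to 1303 CPM at the low dose, and the endothelial list 5.85 to 6.25 against 4.80 to 6.20 CPM. The summed stromal list (mostly ACTA2) was lower at the high dose, at 53.5 to 54.9 against 63.6 to 66.2 CPM. So was the list of bile duct, lung and gut markers (mostly KRT19, LGR5 and EPCAM), at 411 to 418 against 451 to 477 CPM. No marker passed the test for single genes, though CD68 (blood), KRT19 (bile duct) and COL1A1 (stroma) did in some alternative fits, and their part in the results below was not tested.

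The high dose differed from the low dose in few genes and by small amounts. Of 16982 genes tested, 35 were higher (0.206%) and 39 lower (0.23%) at 500 ug/mL, at a Benjamini-Hochberg adjusted p under 0.05 by the edgeR quasi-likelihood test, 74 in all (0.436%). For 59 of the 74 the fold change was under 1.5-fold, and the median size of their log2 fold change was 0.34. Changes of 2-fold or more were found for 7 genes, which were CYP1A1 among the higher ones and MT1M, HK1, MT1G, MT1F, MT2A and 1 gene with no symbol among the lower ones. In all 74 the 3 high-dose libraries lay entirely above or below the 3 low-dose libraries, which is a property of the genes called rather than a further test. The count depended on single libraries: it was 47 without high-dose replicate 2, 48 without low-dose replicate 3 and 49 without high-dose replicate 1. With the trends of GC content and transcript length removed and a replicate block it was 213, of which 58.7% were higher, beside 47.3% of the 74. Each of the 74 kept its direction in every alternative fit that tested it, and 36 of them, 19 higher and 17 lower, were called in all of those fits.

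No gene separated the medium dose from the low dose in the fit to all groups. At 100 against 20 ug/mL no gene passed the edgeR test (0 of 16982, 0%), with 772 at an unadjusted p under 0.05 and a smallest adjusted p of 0.0828, while DESeq2 called 2, a fit without low-dose replicate 2 also called 2, and a fit with no filter on low counts called 126. The other alternatives called between 0 and 4. At 500 against 100 ug/mL, which shares the high-dose libraries, 34 genes passed (0.2%), 16 higher and 18 lower, and 29 of the 74 were among them. That count was 23 without high-dose replicate 2, 150 with no filter on low counts, 124 with only the groups compared, 73 with the GC and length trend removed and 93 with that and the replicate block. Over the 35 genes higher at 500 than at 20 ug/mL, the median log2 fold change was 0.31, and at 100 over 20 ug/mL it was 0.06. Over the 39 lower genes these medians were -0.37 and -0.11. The mean of the medium dose fell between the other 2 doses for 67 of the 74.

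**Figure D1:**
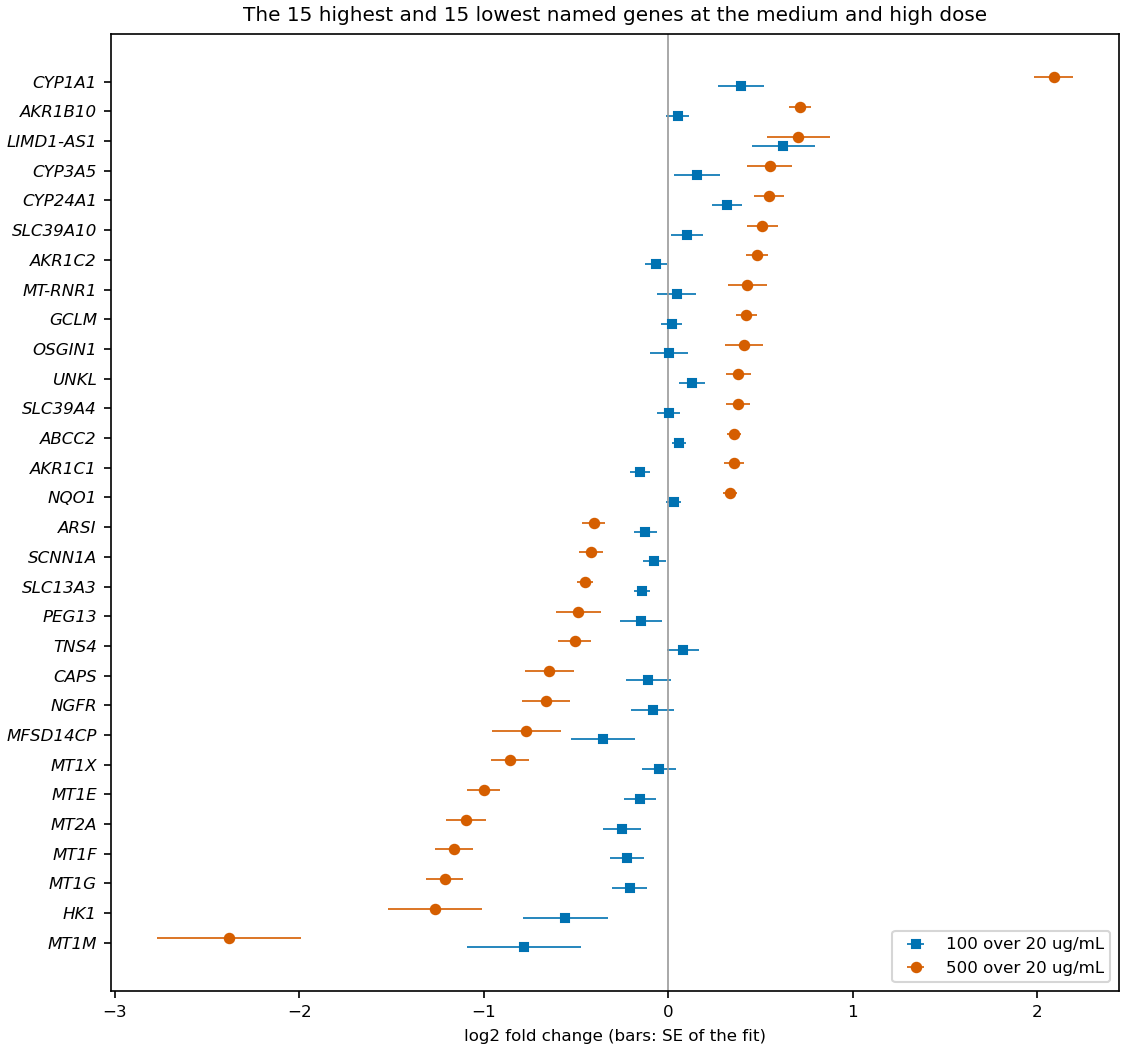
Log2 fold changes (x axis, bars are the SE of the fit) of the 15 highest and 15 lowest genes by the naming rule, with circles for 500 over 20 ug/mL and squares for 100 over 20 ug/mL of Saengmaek-san, 3 libraries per dose. CYP1A1 stands at 2.09 at the high and 0.39 at the medium dose, and most squares lie near 0.

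CYP1A1, the cytochrome P450 that oxidises planar aromatic compounds and the classic AHR target, had the highest fold change of all genes called. Its level (gene ENSG00000140465, chr15:74719542-74725610, reverse strand, GRCh38) was 29.7, 28.8 and 30.0 CPM in the high-dose libraries, against 7.65, 6.89 and 6.33 CPM in the low-dose libraries. Every high-dose library stood above every low-dose one by a wide margin. The difference was 4.26-fold (log2 fold change 2.09 ± 0.10 (SE), adjusted p = 1.58e-19). Means were 8.25 ± 0.724 CPM in vehicle, 6.95 ± 0.664 CPM at 20 ug/mL, 9.14 ± 0.311 CPM at 100 ug/mL and 29.5 ± 0.645 CPM at 500 ug/mL (SD, n = 3 each). The difference lay mainly between 100 and 500 ug/mL, where the log2 fold change was 1.70 (adjusted p = 7.30e-17), while that of 100 over 20 ug/mL was 0.39 (adjusted p = 0.944).

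Of the other tested genes of the AHR axis, NQO1 alone passed. Of its 12 genes, 9 were tested, 2 were higher (CYP1A1 and NQO1, which NRF2 also drives) and none was lower, beside 0.206% higher and 0.23% lower of all genes tested, and the median log2 fold change was 0.06 beside a median of -0.0037 over all genes tested. The receptor AHR was at 45.9 ± 0.319 CPM at the high dose and 44.2 ± 1.53 CPM at the low dose (log2 fold change 0.05, adjusted p = 0.928). Its partner ARNT (-0.09), its repressor AHRR (-0.31) and its target TIPARP (0.06), which feeds back on the receptor, did not pass, nor did SLC7A5 (0.08), an amino acid transporter. ALDH3A1, an aldehyde dehydrogenase driven by AHR, had 0.858, 0.849 and 0.653 CPM at the high dose, against 0.211, 0.471 and 0.533 CPM at the low dose. Those levels did not overlap but were low, and its log2 fold change of 0.92 did not pass (adjusted p = 0.233). CYP1A2, CYP1B1 and UGT1A6 were too low to be tested.

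The start region of CYP1A1 is shown because AHR and ARNT are known to bind near this gene. The 300 bases, from 250 before to 50 after the start, come from RefSeq on GRCh38.p14, at chr15:74725479-74725778 on the reverse strand. Capitals mark GCGTG, the core of the AHR binding motif, searched on both strands.
CYP1A1: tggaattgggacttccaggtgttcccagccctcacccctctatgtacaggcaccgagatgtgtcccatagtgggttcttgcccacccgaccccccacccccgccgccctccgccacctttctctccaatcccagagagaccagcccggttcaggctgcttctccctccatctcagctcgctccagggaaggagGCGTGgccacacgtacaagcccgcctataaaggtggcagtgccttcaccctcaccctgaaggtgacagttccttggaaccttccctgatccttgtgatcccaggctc
CYP1A1 and NQO1 each had 1 match in this window, and 36.5% of 35116 such windows hold the motif, so its presence is common. Whether AHR binds at the marked match was not tested, and sites outside the window were not searched.

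Genes driven by NRF2 rose together by small amounts. Of 16 genes in the list, all tested, 9 were higher and none lower, against 0.206% higher over all genes, and the median log2 fold change was 0.22. The 9 were AKR1B10, GCLM, OSGIN1, AKR1C1, NQO1, FTL, HMOX1, SRXN1 and TXNRD1. With 1 library left out, 7 to 9 members of the list were higher, and 7 of the 9 named were called in every alternative fit, OSGIN1 and FTL being the exceptions.

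Among the aldo-keto reductases, which reduce aldehydes and ketones with NADPH, AKR1B10 (ENSG00000198074, chr7:134527592-134541408) changed most. It had 80.6, 79.3 and 78.4 CPM in the high-dose libraries, against 52.6, 43.5 and 48.9 CPM in the low-dose libraries. The 3 high-dose values sat within a narrow band well above the others (log2 fold change 0.72 ± 0.06, adjusted p = 1.34e-11). AKR1C2 had 354, 348 and 355 CPM at the high dose, against 284, 234 and 241 CPM at the low dose, and rose by 0.48 ± 0.06 (adjusted p = 5.27e-07). AKR1C1 had 775, 763 and 767 CPM at the high dose, against 685, 551 and 566 CPM at the low dose, and rose by 0.36 ± 0.06 (adjusted p = 7.51e-05). In both AKR1C genes the low-dose replicate 1 stood above its fellows without reaching the high-dose libraries. AKR1C1 and AKR1C2 are close copies, and shared reads were divided by estimation, so the split between them is uncertain.

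Of the glutathione and thioredoxin genes in the list, GCLM, TXNRD1 and SRXN1 rose. GCLM, the modifier subunit of the enzyme that limits glutathione synthesis, had 52.2, 52.1 and 55.3 CPM at the high dose, against 39, 40.8 and 39.2 CPM at the low dose. These groups were far apart for their spread (log2 fold change 0.42 ± 0.06, adjusted p = 2.98e-06). The catalytic subunit GCLC had a log2 fold change of 0.17 and did not pass (adjusted p = 0.0892). TXNRD1, which reduces thioredoxin, averaged 204 ± 1.3 CPM at the high dose and 177 ± 5.31 CPM at the low dose (SD, n = 3 each), a log2 fold change of 0.21 (edgeR adjusted p = 0.000485). SRXN1, which repairs oxidised peroxiredoxins, rose by 0.23 (adjusted p = 0.00129). Outside the list, GSR, which regenerates reduced glutathione, rose by 0.18 (adjusted p = 0.00628) and MGST1, a membrane glutathione transferase, by 0.31 (adjusted p = 0.00735). The MGST1 call was lost without high-dose replicate 1 or low-dose replicate 3, that of GSR without replicate 2 of either dose.

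Quinone, heme and iron genes were the remaining members. NQO1, a quinone reductase, had 563, 582 and 574 CPM at the high dose, against 468, 433 and 462 CPM at the low dose (log2 fold change 0.34 ± 0.04, adjusted p = 1.21e-07). HMOX1, which opens the heme ring, had 59.6, 56.8 and 60.3 CPM at the high dose, against 48.9, 47.9 and 50.2 CPM at the low dose (log2 fold change 0.27 ± 0.05, adjusted p = 0.00234). Neither gene had overlapping groups. FTL, the ferritin light chain, rose by 0.32 ± 0.08 (adjusted p = 0.0351), a call lost without any 1 of the libraries except low-dose replicate 2. Heavy chain FTH1 had a log2 fold change of 0.21 (adjusted p = 0.172). OSGIN1, a stress-responsive growth inhibitor, rose by 0.41 ± 0.10 (adjusted p = 0.0442), a call lost likewise except for low-dose replicate 1. The regulators themselves did not pass: the log2 fold change was -0.03 for NFE2L2, which encodes NRF2, 0.00 for KEAP1 and 0.06 for MAFG. SLC7A11 (0.08), the cystine importer, did not pass either.

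The start region of GCLM is shown as the member of this group with the motif and the largest change. It spans chr1:93909381-93909680 on the reverse strand (RefSeq, GRCh38.p14), and capitals mark TGACNNNGC, the core of the antioxidant response element, here on the opposite strand.
GCLM: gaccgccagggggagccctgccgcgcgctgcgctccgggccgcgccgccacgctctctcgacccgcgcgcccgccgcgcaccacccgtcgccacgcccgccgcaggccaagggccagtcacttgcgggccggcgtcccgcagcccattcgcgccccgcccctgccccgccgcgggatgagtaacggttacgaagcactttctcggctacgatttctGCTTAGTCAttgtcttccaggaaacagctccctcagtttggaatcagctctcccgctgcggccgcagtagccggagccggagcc
Of the 9 members called, 7 had a window in the table and 2 of these, GCLM and TXNRD1, held the motif, against 13.3% of all windows.

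**Figure D2:**
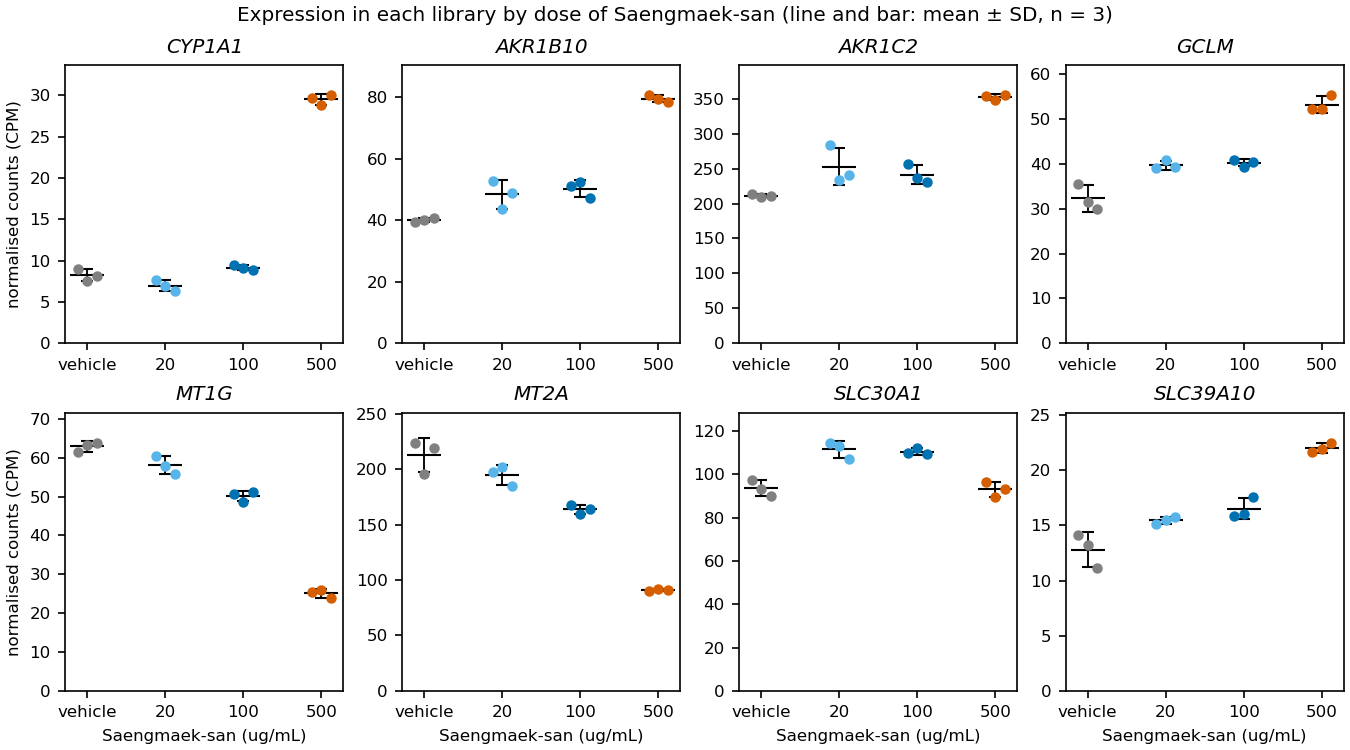
Normalised counts (CPM, linear axes from 0) of 8 genes in each library by dose, with vehicle, 20, 100 and 500 ug/mL of Saengmaek-san from left to right; points are libraries, lines and bars the mean ± SD (n = 3). CYP1A1, AKR1B10, AKR1C2, GCLM and SLC39A10 are highest at 500 ug/mL, while MT1G and MT2A are lowest there and SLC30A1 at 500 ug/mL is near vehicle.

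Metallothioneins fell, and they held most of the larger changes. Of the 11 genes in the list of metallothioneins and zinc transport, 10 were tested, 7 were lower and 1 was higher, against 0.23% lower and 0.206% higher over all genes, and the median log2 fold change was -0.93. The 7 were MT1M, MT1G, MT1F, MT2A, MT1E, MT1X and SLC30A1. The 6 metallothioneins among them were called in every alternative fit in which they were tested. They lie in 1 cluster on chromosome 16, between positions 56608199 and 56684196 (GRCh38), and are similar in sequence, so the division of reads between them is uncertain.

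MT2A (ENSG00000125148), expressed in most tissues, had 90.4, 91.8 and 91.3 CPM in the high-dose libraries, against 198, 202 and 185 CPM in the low-dose libraries. MT1E had 57.6, 58.1 and 53.5 CPM at the high dose, against 118, 111 and 109 CPM at the low dose. In both genes every high-dose library stood far below every low-dose one. The log2 fold changes were -1.10 ± 0.11 for MT2A (adjusted p = 6.95e-10) and -1.0 ± 0.09 for MT1E (adjusted p = 5.74e-11). MT1G had 25.5, 25.9 and 23.8 CPM at the high dose, against 60.4, 58.0 and 55.8 CPM at the low dose (log2 fold change -1.21 ± 0.10, adjusted p = 1.43e-11). MT1F had 16.2, 15.6 and 13.6 CPM at the high dose, against 34.3, 35.9 and 31.3 CPM at the low dose (log2 fold change -1.16 ± 0.10, adjusted p = 5.34e-11). MT1X had 20.4, 21.6 and 19.2 CPM at the high dose, against 38.1, 38.5 and 34.2 CPM at the low dose (log2 fold change -0.86 ± 0.10, adjusted p = 1.21e-07). None of these groups overlapped, and MT1X fell least.

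MT1M had the lowest fold change but few counts. It held 5, 6 and 5 counts in the high-dose libraries, against 31, 33 and 28 counts in the low-dose libraries. On the CPM scale the fall was to 0.236 ± 0.0551 at the high dose, against 1.24 ± 0.217 at the low dose (log2 fold change -2.38 ± 0.39, adjusted p = 0.000176). MT1A had a log2 fold change of -0.46 and did not pass (adjusted p = 0.437), and MT1H was too low to be tested.

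The fall of the metallothioneins was mostly seen between 100 and 500 ug/mL. MT2A averaged 195 ± 8.97, 164 ± 4.23 and 91.2 ± 0.701 CPM (SD, n = 3 each) at 20, 100 and 500 ug/mL. The log2 fold changes of 100 over 20 ug/mL were -0.25 for MT2A, -0.22 for MT1F, -0.21 for MT1G, -0.15 for MT1E and -0.05 for MT1X, none past the threshold. Those of 500 over 100 ug/mL were -0.84, -0.94, -1.0, -0.85 and -0.81 in the same order, all past it.

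Zinc transporters moved beside them. SLC30A1, which carries zinc out of the cell, had 96.3, 89.3 and 93.4 CPM at the high dose, against 115, 113 and 107 CPM at the low dose (log2 fold change -0.26 ± 0.06, adjusted p = 0.0278). Its groups did not overlap, but the call was kept only without low-dose replicate 3 among the fits that left out 1 library. SLC39A10, which carries zinc into the cell, had 21.7, 21.9 and 22.5 CPM at the high dose, against 15.1, 15.5 and 15.7 CPM at the low dose (log2 fold change 0.51 ± 0.08, adjusted p = 0.000197). SLC39A4, another importer, had 95.3, 102 and 100.4 CPM at the high dose, against 77.5, 76.4 and 74.9 CPM at the low dose (log2 fold change 0.38 ± 0.06, adjusted p = 0.000197). Both importers were higher in all 3 libraries and were called in every alternative fit. MTF1, the zinc sensor, had a log2 fold change of 0.02 (adjusted p = 0.985).

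In the whole SLC30 and SLC39 families, a list added after these values were seen, 20 of 24 genes were tested, and SLC39A10, SLC39A4 and SLC30A1 were the only members called, beside 0.436% of all genes tested. The median log2 fold change of the 20 was -0.02. SLC39A14, a broad importer of liver cells, had a log2 fold change of -0.04 (adjusted p = 0.892), and the Golgi and vesicle transporters SLC30A5 (0.00), SLC30A6 (0.04) and SLC30A7 (0.05) were equally short of the threshold.

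The start regions of MT2A, MT1X and SLC30A1 are set out together because these genes fell together and share the binding motif of MTF1. Each window holds 300 bases (RefSeq, GRCh38.p14), at chr16:56608334-56608633 on the forward strand for MT2A, chr16:56682220-56682519 on the forward strand for MT1X and chr1:211579112-211579411 on the reverse strand for SLC30A1. Capitals mark TGCACNC or TGCGCNC, the core of the metal response element, on either strand, a search added after the results were seen.
MT2A: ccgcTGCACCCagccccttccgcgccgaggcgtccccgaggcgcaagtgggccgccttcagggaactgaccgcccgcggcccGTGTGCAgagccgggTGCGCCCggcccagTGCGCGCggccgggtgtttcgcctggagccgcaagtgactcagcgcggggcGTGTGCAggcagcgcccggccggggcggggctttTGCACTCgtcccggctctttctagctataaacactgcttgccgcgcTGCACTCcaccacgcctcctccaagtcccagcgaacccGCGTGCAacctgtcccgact
MT1X: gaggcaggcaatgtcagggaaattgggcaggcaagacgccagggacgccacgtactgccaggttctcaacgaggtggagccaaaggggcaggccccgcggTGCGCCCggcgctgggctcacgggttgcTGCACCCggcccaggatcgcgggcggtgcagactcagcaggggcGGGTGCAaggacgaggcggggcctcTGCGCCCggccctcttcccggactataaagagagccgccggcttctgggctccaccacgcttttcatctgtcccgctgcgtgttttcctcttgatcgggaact
SLC30A1: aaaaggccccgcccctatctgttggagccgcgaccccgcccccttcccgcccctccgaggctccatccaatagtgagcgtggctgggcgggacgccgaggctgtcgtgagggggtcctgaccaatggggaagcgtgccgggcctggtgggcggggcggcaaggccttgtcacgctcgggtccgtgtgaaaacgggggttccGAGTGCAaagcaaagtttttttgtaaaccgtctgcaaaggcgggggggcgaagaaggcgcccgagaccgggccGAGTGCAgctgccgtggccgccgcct
MT2A held 8 matches, MT1X 4 and SLC30A1 2, and these were the 3 lower members with a window in the table. Of 2 windows of SLC39A10, 1 held 1 match. The motif is common, in 29.6% of all windows.

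**Figure D3:**
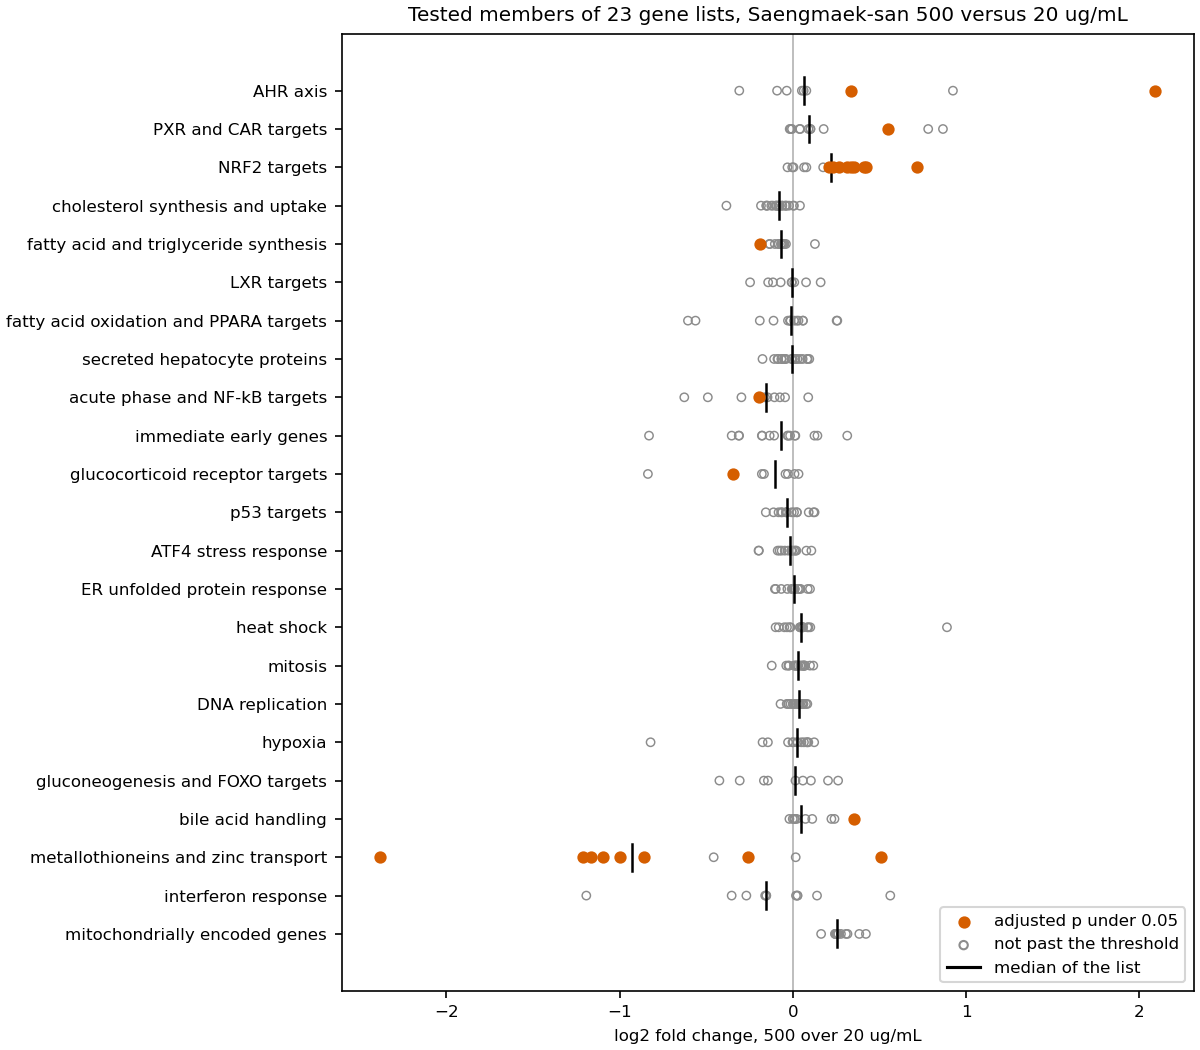
Log2 fold changes of 500 over 20 ug/mL Saengmaek-san (x axis) for each tested member of 23 gene lists (rows), with filled points for genes at an adjusted p under 0.05, open points for the rest and a black line for the list's median. Filled points gather in the NRF2 list on the right and in the metallothionein list on the left, and most other rows hold none.

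Genes of drug handling rose singly. ABCC2, the export pump for conjugated drugs and bilirubin, had 428, 432 and 425 CPM at the high dose, against 339, 344 and 321 CPM at the low dose (log2 fold change 0.36 ± 0.04, adjusted p = 1.68e-08). It was the only member higher of 10 tested in the list of bile acid handling, beside 0.206% higher of all genes tested. CYP3A5, a drug-oxidising P450, had 6.91, 6.89 and 6.57 CPM at the high dose, against 5.11, 4.62 and 4.19 CPM at the low dose (log2 fold change 0.55 ± 0.12, adjusted p = 0.0151). It was the only member higher of 12 tested in the list of PXR and CAR targets, and the call was lost without replicate 1 or 2 of the high dose or replicate 2 or 3 of the low dose. CYP3A4, the main drug-oxidising P450 of adult liver, was at 0.342 ± 0.0824 CPM at the high dose and 0.199 ± 0.0257 CPM at the low dose and did not pass (adjusted p = 0.822). CYP24A1, which breaks down active vitamin D, had 30.0, 34.5 and 34.9 CPM at the high dose, against 20.5, 25.8 and 21.9 CPM at the low dose (log2 fold change 0.55 ± 0.08, adjusted p = 2.82e-05). UGDH, which makes the sugar donor for glucuronidation, rose by 0.22 (adjusted p = 0.000577), and CYB5A, an electron donor to P450 enzymes, by 0.29 (adjusted p = 7.80e-05).

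Several further genes were higher. SQSTM1, the autophagy receptor p62 that also binds KEAP1, rose by 0.27 (adjusted p = 2.82e-05), and PIR, an iron-binding nuclear protein, by 0.33 (adjusted p = 0.00234). MAT1A, which makes S-adenosylmethionine in liver, rose by 0.25 (adjusted p = 8.98e-05), BHMT2, a methionine-forming methyltransferase, by 0.28 (adjusted p = 0.0125) and UNKL, a zinc finger protein, by 0.38 (adjusted p = 0.000705). The antisense RNA LIMD1-AS1 rose by 0.71 (adjusted p = 0.043) but lost its call without any 1 library except high-dose replicate 3. Since the strand setting of the counting is not given, its reads cannot be told apart from those of an overlapping partner. The other higher genes were HKDC1, RASSF3, PTMA, ASF1A, AK4, PSMD11 and NSUN2, with log2 fold changes of 0.14 to 0.28.

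The mitochondrial ribosomal RNAs were among the higher genes. MT-RNR1 had 5448, 5636 and 5894 CPM at the high dose, against 4382, 4188 and 4049 CPM at the low dose (log2 fold change 0.43 ± 0.11, adjusted p = 0.0478), a call lost whichever library was left out. MT-RNR2 rose by 0.28 ± 0.06 (adjusted p = 0.0226), lost without replicate 2 or 3 of the high dose or replicate 1 or 3 of the low dose. None of the 13 mitochondrial protein genes passed, but all 13 had positive values, beside 8181 of all 16982 genes tested, and their median was 0.26. The mitochondrial share of all counts was 13.8%, 13.2% and 13.9% at the high dose, against 11.4%, 13.3% and 10.1% at the low dose. Low-dose replicate 2 was within the high-dose range of this share, while its MT-RNR1 and MT-RNR2 were below every high-dose library. The part of the share in these calls was not tested. MT-ND1, one of the 13, was called without low-dose replicate 2, at a log2 fold change of 0.56, and MT-ND1 and MT-ND6 were called with no filter on low counts.

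Beyond the metallothioneins, lower genes included a transporter, an adhesion protein and a matrix protein with modest changes. SLC13A3, which imports dicarboxylates with sodium, had 45.2, 47.9 and 50.4 CPM at the high dose, against 65.4, 68.0 and 62.9 CPM at the low dose (log2 fold change -0.45 ± 0.04, adjusted p = 1.34e-09). TNS4, a focal adhesion protein, had 16.8, 16.2 and 15.9 CPM at the high dose, against 21.5, 25.5 and 22.6 CPM at the low dose (log2 fold change -0.51 ± 0.09, adjusted p = 0.000734). MATN3, a matrix protein of cartilage, had 90.9, 88.6 and 97.1 CPM at the high dose, against 121, 117 and 123 CPM at the low dose (log2 fold change -0.38 ± 0.05, adjusted p = 9.58e-07). All 3 had separate groups and were called in every alternative fit. SCNN1A, the alpha subunit of the epithelial sodium channel, fell by 0.42 (adjusted p = 7.13e-05), and SGK1, a kinase that keeps that channel at the membrane, fell by 0.35 (adjusted p = 0.00234). SGK1 was also the only lower member of 8 tested in the list of glucocorticoid receptor targets, beside 0.23% lower of all genes tested. Its call was lost without low-dose replicate 1.

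Among low-level genes, NGFR, the p75 neurotrophin receptor, had 3.07, 2.15 and 3.10 CPM at the high dose, against 4.69, 3.81 and 4.76 CPM at the low dose. It fell by 0.66 ± 0.13 (adjusted p = 0.00239), and the call was lost without high-dose replicate 2 or low-dose replicate 3. HK1, a hexokinase, held 12, 10 and 17 counts at the high dose, against 31, 26 and 46 counts at the low dose. It fell by 1.26 ± 0.26 (adjusted p = 0.00492), and that call did not survive the loss of replicate 1 or 2 of the high dose or replicate 3 of the low dose. Its neighbour and relative on chromosome 10, HKDC1, rose by 0.28 (adjusted p = 0.0136). CAPS, a calcium-binding protein, fell by 0.65, PEG13, an imprinted RNA, by 0.49, MFSD14CP, named as a pseudogene of a transporter family, by 0.77 and ARSI, a sulfatase, by 0.40. PEG13 was called in only 2 of 14 alternative fits in which it was tested, and MFSD14CP in 5 of 14.

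Of 16 targets of the Wnt pathway, a list added after values were seen, 2 were lower and none higher, beside 0.23% lower and 0.206% higher of all genes tested. Of the 16, 14 had negative log2 fold changes, beside 8770 of all 16982 genes tested, and the median of the list was -0.11. NKD1, a feedback inhibitor of Wnt signalling, averaged 383 ± 13.4 CPM at the high dose and 455 ± 11.0 CPM at the low dose (SD, n = 3 each; log2 fold change -0.25, edgeR adjusted p = 0.00128). DKK1, a secreted Wnt antagonist, fell by 0.25 (adjusted p = 0.0226), and its call was lost without any 1 library except low-dose replicate 3. AXIN2 (-0.05), LGR5 (-0.13) and RNF43 (-0.13) did not pass. A gene with no symbol, ENSG00000205414, lies inside NKD1 on the opposite strand and fell by 0.88 (adjusted p = 0.032), and its reads cannot be told apart from those of NKD1 without the strand setting.

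The other lower genes had log2 fold changes between -0.38 and -0.17, apart from 1 more gene with no symbol at -1.30. They included TGM2, a protein crosslinking enzyme, L1CAM, a cell adhesion molecule, KRT23, a keratin, CFB, complement factor B, and SERPINA7, the thyroxine-binding globulin. TNFAIP3, which restrains NF-kB, fell by 0.20 (adjusted p = 0.0326), a call kept only without low-dose replicate 3 when 1 library was left out. It was the only lower member of 10 tested in the acute phase and NF-kB list, beside 0.23% lower of all genes tested. ACSS2, which makes acetyl-CoA from acetate, fell by 0.19 (adjusted p = 0.00234) as the only lower member of 16 tested in the list of fatty acid synthesis, and its adjusted p was 0.0505 without high-dose replicate 2.

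The remaining lists had no member called. In cholesterol synthesis and uptake, none of 24 passed and the median log2 fold change was -0.08. Negative values were found for 21 of them, beside 8770 of all 16982 genes tested. HMGCS1, which starts the pathway, was at 459 ± 6.97 CPM at the high dose and 521 ± 9.61 CPM at the low dose (log2 fold change -0.18, edgeR adjusted p = 0.222, n = 3 each), and it passed in 5 of the alternative fits. Mitosis (21 genes) and DNA replication (21) had medians of 0.03, with MKI67, a marker of cycling cells, at 0.01 (adjusted p = 0.995). p53 targets (15), ATF4 targets (14), the unfolded protein response (16) and heat shock (16) had medians of -0.03, -0.02, 0.01 and 0.05. CDKN1A, the p53-driven cell cycle inhibitor, was at -0.04 and TRIB3, an ATF4 target, at -0.01. Secreted hepatocyte proteins (21) had a median of -0.01, and ALB was at 9946 ± 478 CPM at the high dose and 9761 ± 484 CPM at the low dose (edgeR adjusted p = 0.958, n = 3 each). Hypoxia (14), LXR targets (9), fatty acid oxidation (15), immediate early genes (16), FOXO targets (9) and the interferon response (11) had medians of 0.03, -0.01, -0.01, -0.07, 0.02 and -0.15.

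Against vehicle, 6872 genes (40.5%) passed at 500 ug/mL, but vehicle has its own set label, so the extract and the set cannot be told apart there. Some of the genes that separated the 2 doses also stood away from vehicle. MT2A was at 91.2 ± 0.701 CPM at the high dose and 213 ± 15.3 CPM in vehicle (SD, n = 3 each; edgeR adjusted p = 3.63e-12). CYP1A1, AKR1B10, GCLM, NQO1 and ABCC2 were above vehicle by 1.83, 0.99, 0.72, 0.63 and 0.64 on the log2 scale. Others differed between doses while the high dose was near vehicle. HMOX1 was at 58.9 ± 1.85 CPM at the high dose and 57 ± 1.94 CPM in vehicle (SD, n = 3 each; edgeR adjusted p = 0.469). OSGIN1 (-0.12), FTL (0.07), SLC30A1 (-0.01), MATN3 (-0.03) and DKK1 (0.02) likewise did not pass against vehicle. The mitochondrial RNAs had their highest levels in vehicle, where MT-RNR1 averaged 7275 ± 218 CPM.

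Guibi-tang, tested at the same doses in the same set, allows the responses to be compared directly. The difference between the dose responses (500 over 20 ug/mL of Saengmaek-san minus that of Guibi-tang) passed for 3320 genes (19.6%), and of the 10 genes compared here it passed for 5. Such a difference can come from the response to either extract, and 74 genes (0.436%) passed between the doses of Saengmaek-san itself. For CYP1A1 the log2 fold change was 2.09 with Saengmaek-san and 4.12 with Guibi-tang, a difference of -2.03 (95% interval -2.32 to -1.74, adjusted p = 3.30e-15). It was 0.72 with Saengmaek-san and 1.57 with Guibi-tang for AKR1B10 (difference -0.86, adjusted p = 2.20e-11), and 0.55 with Saengmaek-san and 1.90 with Guibi-tang for CYP24A1 (difference -1.35, adjusted p = 2.00e-13). HK1 fell by 1.26 with Saengmaek-san and had a log2 fold change of 0.51 with Guibi-tang (difference -1.77, adjusted p = 0.00012). LIMD1-AS1 rose by 0.71 with Saengmaek-san and was at -0.01 with Guibi-tang (difference 0.72, adjusted p = 0.028).

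Of the 6 metallothioneins called, the difference between the extracts passed for 1. MT1E fell by 1.00 with Saengmaek-san and had a log2 fold change of -1.41 with Guibi-tang, a difference of 0.41 (95% interval 0.15 to 0.67, edgeR adjusted p = 0.0165). MT1X had a difference of 0.38 (0.09 to 0.67) that did not pass (adjusted p = 0.057). MT1E and MT1X are not among the 10 genes above and were added after their values were seen. MT2A was at 91.2 ± 0.701 CPM at 500 ug/mL and 195 ± 8.97 CPM at 20 ug/mL of Saengmaek-san, and at 82.1 ± 18.1 CPM and 181 ± 40.0 CPM at the same doses of Guibi-tang. Its difference in dose response was 0.04 (95% interval -0.26 to 0.34). For MT1F the difference was 0.26 (-0.04 to 0.56), for MT1G 0.31 (0.02 to 0.61, adjusted p = 0.138) and for MT1M 0.29 (-0.94 to 1.52). None of these 4 passed. CYP3A5 had a difference of 0.00 (-0.32 to 0.33), which did not pass. These intervals leave room for differences of up to their bounds.

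**Figure D4:**
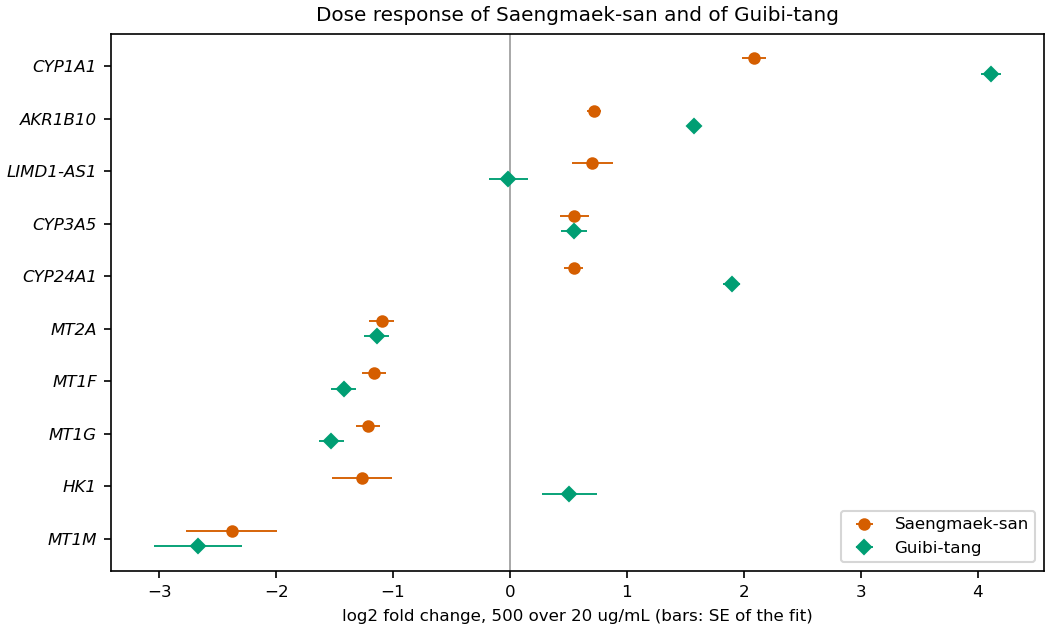
Log2 fold changes of 500 over 20 ug/mL (x axis, bars are the SE of the fit) for 10 genes (rows), with circles for Saengmaek-san and diamonds for Guibi-tang, 3 libraries per dose. The symbols of CYP1A1, AKR1B10, CYP24A1 and HK1 lie apart, and those of MT2A and CYP3A5 lie together.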

How the data were processed

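RNA of HepG2 cells was sequenced as 100 bp pairs from a directional kit, per the labels' protocols. Per the submitters' processing notes, FastQC 0.11.9, Trim Galore 0.6.5, STAR 2.7.3a and RSEM 1.3.3 were used with GRCh38. No source used here names the annotation release or the strand setting. The authors deposited RSEM expected counts per gene, not normalized, and 9.97% of values were not whole, so they were rounded. RSEM divides reads shared by similar genes by estimation.

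Groups were read from the labels. In R 4.3.3, edgeR 4.0.16 (quasi-likelihood test, TMM scaling, filterByExpr with a minimum count of 10) was fitted to 57 libraries in 22 groups with 35 residual degrees of freedom, leaving out an extract with 1 library per dose. The common dispersion was 0.00216, a coefficient of variation of 4.65%. Adjusted p-values are Benjamini-Hochberg over 16982 genes, called under 0.05, and apply to all values given here. CPM of single genes are TMM-scaled, those of summed marker lists are not, and CPM are not comparable between genes of different length. The SE of a log2 fold change is its size divided by the root of F. Symbols matched 56558 of 60675 gene IDs, and coordinates are from GENCODE 29. The smallest chi-square per gene between libraries of a group was 2.12, so none was a copy. It was 2.17 to 2.93 between high-dose libraries and 4.66 to 14.4 between low-dose libraries, which thus differed more among themselves.

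Named genes were the 15 highest and 15 lowest called whose symbol is known and whose higher group averaged 1 CPM or more, every called list member, the AHR list, a panel of 8 genes and up to 2 members of lists with none called. Of the 74 genes called, 38 met this rule, and the others named were chosen after their values were seen. Members and lists were chosen with earlier results of these data known. No list was tested as a whole. List counts cover every member, but some members are not reported here singly. Alternatives were RLE scaling, DESeq2 1.42.0, all genes unfiltered, genes averaging 1 CPM, fits of fewer groups, GC and length trends removed, a replicate block and leaving out each library, where a group left with 2 libraries shares the spread of the others. The scripts were tested on simulated data.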

Additional observations from a re-analysis of the deposited data

Results flagged for a closer look

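The dose response (500 over 20 ug/mL) differed between Saengmaek-san and Guibi-tang, by a direct test of the difference with edgeR, for 3320 of 16982 genes. Such a difference can come from the response to either extract, and 74 genes passed between the doses of Saengmaek-san itself. Among the 10 genes compared by name, which were picked by their fold change with Saengmaek-san in libraries the test reuses, the dose response differed for 5. The difference, Saengmaek-san minus Guibi-tang on the log2 scale, was -2.03 for CYP1A1, -0.86 for AKR1B10, -1.35 for CYP24A1, -1.77 for HK1 and 0.72 for LIMD1-AS1. MT1E, compared after its values were seen, had a difference of 0.41. HK1 and LIMD1-AS1 are low in all 4 groups, and the call of LIMD1-AS1 between the doses of Saengmaek-san was lost without any 1 library except high-dose replicate 3.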

How the results depend on the processing

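All 74 genes kept their direction in each alternative in which they were tested, and 36 kept their call in all of them. Of the values of other named genes, 19 changed sign, none past the threshold in either fit. Against 74 genes at 500 over 20 ug/mL, 253 passed with no filter on low counts, 113 with only the groups compared, 172 with the GC and length trend removed and 213 with that and the replicate block, and 47 to 70 when 1 library was left out. DESeq2 gave 97, RLE scaling 73, a filter at a mean of 1 CPM 78 and set 13 alone 76. At 500 over 100 ug/mL, against 34, these 4 first settings gave 150, 124, 73 and 93, and leaving out 1 library 23 to 28. At 100 over 20 ug/mL, against 0, DESeq2 gave 2, no filter 126, only the groups compared 3, the replicate block 3, the GC and length trend removed 2, with the block 4, and leaving out 1 library 0 to 2. Against vehicle 4907 to 6889 passed, and for the difference from Guibi-tang 2911 to 4298. The cause of these shifts was not tested.

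Replicate numbers did not pair the high-dose and low-dose samples: the correlations of same-numbered libraries were 0.01, -0.14 and -0.03. No high-dose library correlated best with the low-dose library of its own number. Same-numbered correlations of the medium dose were -0.05, -0.0045 and 0.04 with the high dose and -0.02, 0.02 and 0.10 with the low dose. With the replicate block 90 genes passed at 500 over 20 ug/mL, 47 at 500 over 100 ug/mL, 6364 against vehicle and 3421 for the difference from Guibi-tang. Members of the NRF2 list called higher numbered 7 to 11 and lower members of the metallothionein list 6 to 7 over all settings. Depth limits what can be said of genes near or under 1 CPM in at least 1 group, such as MT1M, HK1, ALDH3A1 and CYP3A4, which had few counts per library.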
